A study of Mus musculus with 8 samples.

Results

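The genes described here are 9 mouse genes of Fc receptor signalling in myeloid cells: the IgG receptors Fcgr1, Fcgr2b, Fcgr3 and Fcgr4, the adaptors Fcer1g and Tyrobp, and the kinases Syk, Fgr and Lyn. They were chosen by name, with earlier results of these data known. Their probes were found through the transcript accession that each array probe carries. This gave 12 of the 56413 probes used and all 9 genes, of 29585 genes or unnamed features tested. All 12 probes passed the filter on dim probes, and 10 of them were well above background on all 8 arrays. The other 2 were the probes of Fgr.

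The RNA came from cells of abdominal subcutaneous fat of male C57BL/6 mice that were 6 weeks old at the start. The fat was digested with collagenase, and the cells that stuck to uncoated plastic were passaged and taken as adipose-derived mesenchymal stromal cells, a kind of fibroblast-like progenitor. The mice were fed a high-fat diet (60% fat) for 24 weeks (HF24), control chow for 24 weeks (C24), the high-fat diet for 12 weeks (HF12) or control chow for 12 weeks (C12). Each of the 4 groups had 2 one-colour arrays. The groups share strain, sex and starting age, so mice at 24 weeks were also older than mice at 12 weeks, and age and feeding time cannot be told apart.

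Fc receptors bind the constant part of antibodies. Activating receptors signal through an ITAM, a pair of tyrosines in the tail of the receptor or of a partner adaptor. Src family kinases such as Lyn and Fgr phosphorylate these tyrosines, Syk docks on them, and calcium release, phagocytosis and cytokine production follow. Inhibitory receptors carry an ITIM instead and recruit phosphatases that oppose the signal. In adipose tissue these genes are known mainly from macrophages, and some of them also from mast cells, neutrophils, dendritic cells and B cells.

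Nothing in the labels tells whether both arrays of a group came from different mice or dishes. The p-values therefore reflect the spread among these 8 arrays alone, and that spread may be technical. All 8 arrays lay on 1 slide. The 12-week arrays filled slide row 1 and the 24-week arrays row 2, so slide row and feeding time cannot be told apart. Chow arrays filled columns 1 and 2 and high-fat arrays columns 3 and 4, and diet and slide column cannot be told apart either. Between 57.6% and 62.4% of probes were well above background on the 24-week arrays, against 65.1% to 67.2% on the 12-week arrays, and 0 spots were saturated. The label of the cells was checked against 11 stromal markers: 10 were tested, all were well above background on every array, and Ly6a was not tested. Single stromal markers still differed between groups at an adjusted p under 0.05 in limma: with diet, 1 was higher and 3 lower at 24 weeks, and 1 was higher and 4 lower at 12 weeks. The lowest at 12 weeks were Nt5e (CD73), with a log2 change of −3.31 for HF12 over C12, and Dpp4, with −2.06. Nt5e also changed by −2.50 for C24 over C12. For C24 over C12, 4 of the 10 rose and 2 fell, where 24.5% of all genes rose and 22.0% fell. For HF24 over HF12, 7 of the 10 rose and 0 fell, where 21.1% of all genes rose and 25.5% fell. The summed level of the 10, on the linear scale where the 75th percentile of an array is 1, was 554 and 564 in HF24, 546 and 554 in C24, 476 and 507 in HF12, and 501 and 486 in C12.

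In these cultures the 9 genes moved together with diet. All 9 were higher on the high-fat diet than on chow at 24 weeks (median log2 change 0.89) and at 12 weeks (median 3.50). Of all genes tested, 12.9% were higher and 20.2% lower at 24 weeks (33.1% in either direction), and 13.7% were higher and 17.6% lower at 12 weeks (31.3% in either direction). The median change of all genes was −0.01 at 24 weeks and −0.03 at 12 weeks. A gene is called higher or lower here when its adjusted p in limma, with Benjamini-Hochberg adjustment over all genes tested, was under 0.05. The count of called genes at 12 weeks, 9263, fell to 6077 when C12 replicate 1 was left out, and to 5440 or 5825 when replicate 1 or 2 of HF12 was.

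Feeding time gave a different picture on each diet. On chow, all 9 genes were higher at 24 than at 12 weeks (median log2 change 1.99), where 24.5% of all genes were higher and 22.0% lower (46.5% in either direction). On the high-fat diet, 7 genes were lower at 24 than at 12 weeks, 1 (Fcgr2b) was higher and 1 (Lyn) was not called (median −0.61), where 25.5% of all genes were lower and 21.1% higher (46.6% in either direction). Each comparison of diet shares arrays with both comparisons of time. In bulk RNA of this kind, fewer cells of a type and less RNA per cell cannot be told apart.

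**Figure D1:**
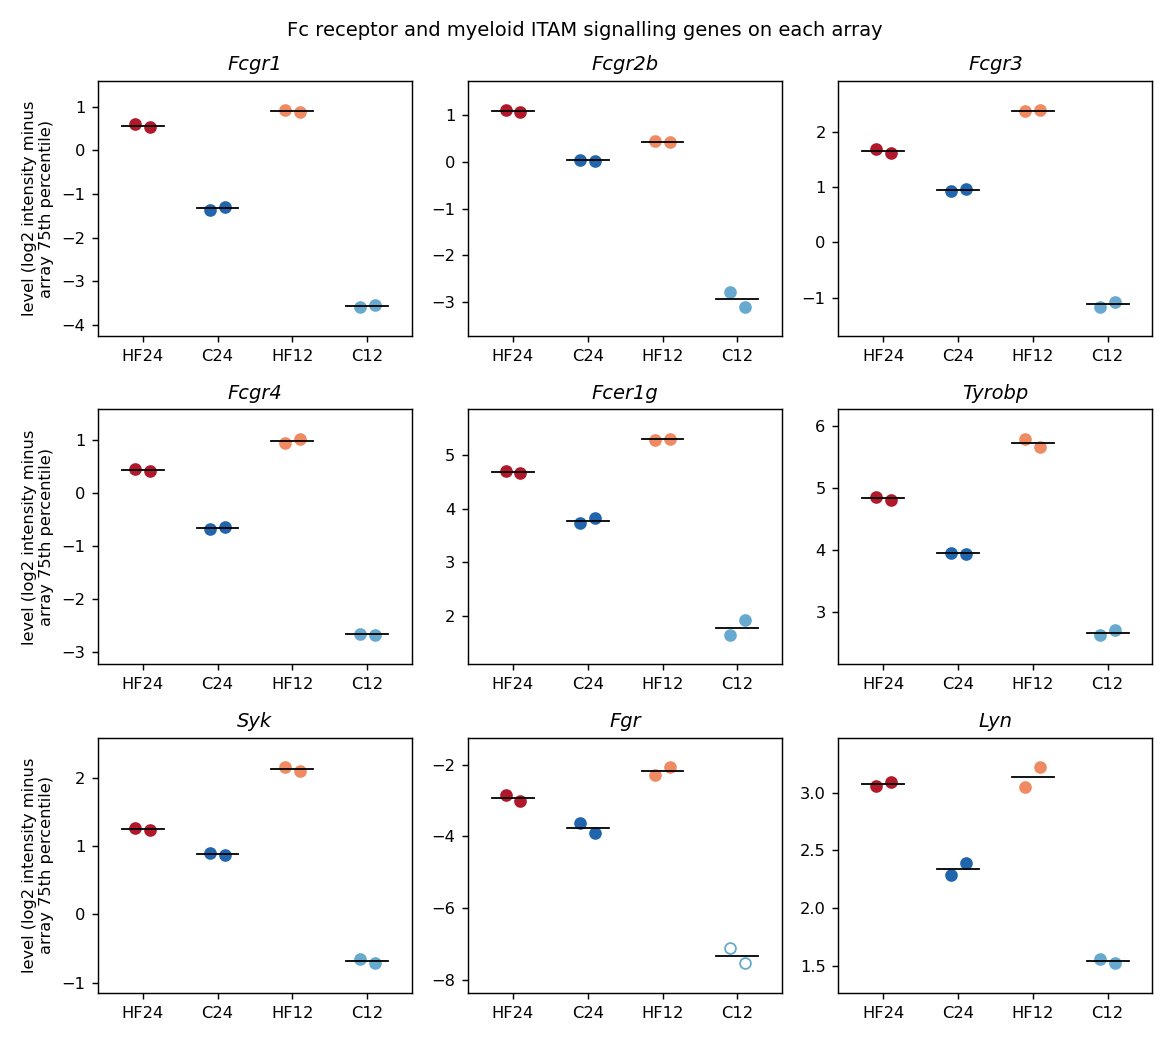
Level of each gene on each of the 8 arrays, as log2 intensity minus the 75th percentile of the array (vertical axis), by group (horizontal axis); points are arrays, lines are means of the 2 arrays of a group, and open points were not well above background. HF12 arrays stood above C12 arrays for all 9 genes, and HF24 arrays stood above C24 arrays by less.

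Levels are given as log2 intensity minus the 75th percentile of the array, so a gene at 0 is as bright as that percentile. The SD between the 2 arrays of a group ranged over the 9 genes and 4 groups from 0.0035 to 0.31, with a median of 0.04. Levels of different genes are not compared, since probes differ in brightness.

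Among the activating receptors, Fcgr1 encodes the high-affinity IgG receptor, whereas Fcgr3 and Fcgr4 encode receptors of lower affinity; all need the adaptor made from Fcer1g. Fcgr1 lay at 0.60 and 0.54 on the HF24 arrays, −1.36 and −1.29 on C24, 0.92 and 0.89 on HF12, and −3.58 and −3.55 on C12. In deposited intensity, these were 2031.0 and 1921.58 in HF24, 546.01 and 570.38 in C24, 2801.31 and 2491.39 in HF12, and 118.23 and 114.73 in C12. The 4 groups of arrays did not overlap, and the chow cultures at 12 weeks were far below the rest. The diet change of Fcgr1 was 1.89 ± 0.06 at 24 weeks (SE, n = 2 against 2; limma adjusted p = 4.849e-05) and 4.47 ± 0.06 at 12 weeks (1.689e-06), a 3.72-fold and a 22.2-fold difference. On chow it was 2.24 ± 0.06 higher at 24 than at 12 weeks (adjusted p = 5.893e-06), and on the high-fat diet it fell by 0.34 (SE 0.06, adjusted p = 0.004972).

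Fcgr3 lay at 1.68 and 1.61 in HF24, 0.92 and 0.97 in C24, 2.38 and 2.38 in HF12, and −1.16 and −1.08 in C12. Fcgr4 lay at 0.44 and 0.41 in HF24, −0.69 and −0.65 in C24, 0.94 and 1.01 in HF12, and −2.65 and −2.68 in C12. Both genes kept the order of Fcgr1, with HF12 highest, then HF24, then C24, then C12, and no groups overlapped. With diet, Fcgr3 was 0.70 ± 0.06 higher at 24 weeks (SE; adjusted p = 0.0005598) and 3.50 ± 0.06 higher at 12 weeks (1.769e-06), and Fcgr4 was 1.10 ± 0.06 (0.0001386) and 3.64 ± 0.06 higher (1.689e-06). In folds, the diet difference of Fcgr3 was 1.62 at 24 weeks and 11.3 at 12 weeks, and that of Fcgr4 was 2.14 and 12.5. On chow, Fcgr3 was 2.07 and Fcgr4 1.99 higher at 24 than at 12 weeks. On the high-fat diet, Fcgr3 fell by 0.73 (adjusted p = 0.0003402) and Fcgr4 by 0.55 (0.0007787).

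Fcgr2b encodes the inhibitory IgG receptor, the one member with an ITIM. Its probe lay at 1.10 and 1.06 in HF24, 0.05 and 0.02 in C24, 0.44 and 0.43 in HF12, and −2.79 and −3.10 in C12. Here the HF24 arrays were the highest of the 8, whereas HF12 was highest for the 3 activating receptors. With diet, Fcgr2b was 1.05 ± 0.10 higher at 24 weeks (SE; adjusted p = 0.0009537) and 3.38 ± 0.10 higher at 12 weeks (6.813e-06). With time, it was 2.98 ± 0.10 higher on chow (adjusted p = 1.507e-05) and 0.65 ± 0.10 higher on the high-fat diet (0.004183). A second probe, designed to another transcript of the gene, lay at −0.47 and −0.74 in HF24, −1.91 and −1.61 in C24, −1.15 and −1.28 in HF12, and −4.88 and −4.92 in C12. It gave the same directions, and its change on the high-fat diet between 24 and 12 weeks was 0.62 ± 0.13 (SE; adjusted p = 0.01303 over 37650 probes).

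Within each array, Fcgr2b was also set against the mean of the other 8 genes. That difference was −0.62 and −0.61 on HF24 arrays, −0.71 and −0.75 on C24, −1.84 and −1.88 on HF12, and −1.62 and −1.92 on C12, where the mean includes Fgr, a gene not well above background there. The 4 arrays at 24 weeks thus stood above the 4 arrays at 12 weeks on both diets. Against Fcgr3 alone, the difference was −0.58 and −0.54 on HF24, −0.87 and −0.95 on C24, −1.94 and −1.95 on HF12, and −1.63 and −2.01 on C12. Against Fcgr1 alone, it was 0.50 and 0.53 on HF24, 1.41 and 1.31 on C24, −0.48 and −0.46 on HF12, and 0.80 and 0.45 on C12. Relative to Fcgr1, therefore, HF24 and C12 overlapped, and the 24-week arrays did not all stand above the 12-week arrays. The difference between genes was not tested. Fcgr2b and Fcgr3 have similar extracellular parts, the probe sequences were not used here, and whether a probe also binds the other transcript was not tested.

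**Figure D2:**
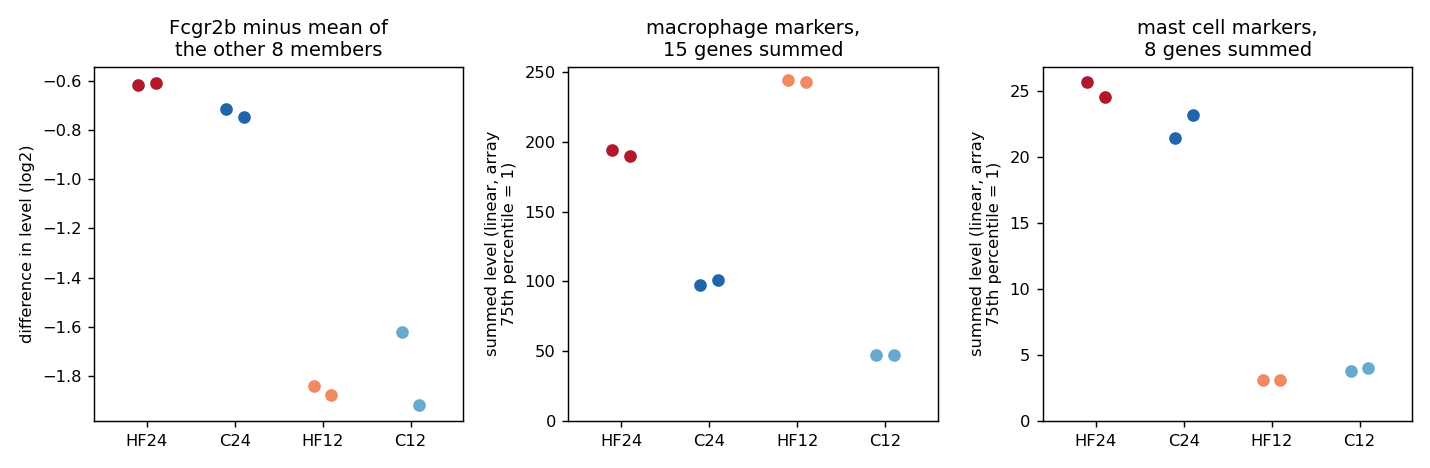
Left, Fcgr2b level minus the mean level of the other 8 genes on each array (log2); middle and right, levels of 15 macrophage and 8 mast cell markers summed on each array (linear scale, 75th percentile of the array = 1), by group, with 1 point per array. The Fcgr2b difference is between −0.75 and −0.61 on 24-week arrays and between −1.92 and −1.62 on 12-week arrays, and the mast cell sum is 21.4 to 25.7 on 24-week arrays and 3.08 to 4.04 on 12-week arrays.

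Markers of other cells moved with these genes. Of 15 macrophage markers, 11 were higher and 1 lower with diet at 24 weeks, and 14 were higher and 0 lower at 12 weeks. Their summed level was 194 and 190 in HF24, 97.5 and 101 in C24, 244 and 243 in HF12, and 46.9 and 47.4 in C12, the same order of groups as for Fcgr1, Fcgr3 and Fcgr4. In C12, 13 of the 15 were well above background on both arrays, all but Cd163 and Cx3cr1. With time, 12 were higher and 1 lower on chow, whereas 3 rose and 10 fell on the high-fat diet. The 3 that rose, in the direction of Fcgr2b, were C1qa (0.76), Aif1 (0.60) and C1qc (0.26). The part of these cells in the results was not tested. Of all genes tested, 12.9% were higher and 20.2% lower with diet at 24 weeks, and 13.7% and 17.6% at 12 weeks. With time, 24.5% were higher and 22.0% lower on chow, and 21.1% and 25.5% on the high-fat diet. The counts of the marker lists below stand beside the same shares.

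Mast cell markers followed time. All 8 were higher at 24 than at 12 weeks on either diet, and with diet 2 were higher and 0 lower at 24 weeks and 0 were higher and 4 lower at 12 weeks. Their summed level was 25.7 and 24.5 in HF24, 21.4 and 23.2 in C24, 3.1 and 3.08 in HF12, and 3.76 and 4.04 in C12, so it was high on the arrays where Fcgr2b stood highest relative to the other 8 genes. Its part in the Fcgr2b result was not tested. Of 11 neutrophil markers, Ly6g, Cxcr2, Ngp and Retnlg were not tested, and the 7 others summed to 43.4 and 46.3 in HF24, 64.5 and 60.2 in C24, 57.2 and 60.0 in HF12, and 67.9 and 65.5 in C12. Single neutrophil markers did not follow that sum: with diet, 5 of the 7 were higher and 1 lower at 24 weeks, and 3 were higher and 1 lower at 12 weeks. S100a8 was 1.63 higher at 24 weeks, and S100a9, not well above background in C24, was at least 38.2-fold higher in HF24. The B cell sum stayed between 0.355 and 0.686 on all arrays, with Ms4a1, Blk and Fcmr not tested. For T and NK cells the sum was 2.99 to 4.0, with 4 of 9 higher and 0 lower with diet at 24 weeks and 0 higher and 2 lower at 12 weeks.

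The dendritic cell sum was 71.1 to 93.3, with Flt3, Xcr1 and Clec9a not tested. Of the 6 others, 1 was higher and 2 lower with diet at 24 weeks, and 3 were higher and 0 lower at 12 weeks. Of all genes, 33.1% and 31.3% were called in either direction at 24 and 12 weeks. Itgax (CD11c), found on dendritic cells and on macrophages, was 1.20 higher with diet at 24 weeks and 3.18 at 12 weeks, and with time it was 0.51 higher on chow and fell by 1.47 on the high-fat diet, the directions of Fcgr1, Fcgr3 and Fcgr4. Batf3 was 1.83 higher with diet at 12 weeks.

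Platelet markers summed to 20.5 and 20.2 in HF24, 7.0 and 7.07 in C24, 10.6 and 10.5 in HF12, and 0.826 and 0.836 in C12, with Gp9 and Ppbp not tested. Of the 4 tested, Pf4 alone was higher, by 1.55 with diet at 24 weeks, 3.92 with diet at 12 weeks, 3.33 with time on chow and 0.96 with time on the high-fat diet. Itga2b and Gp6 were not called in these comparisons, and Gp1bb fell by 0.33 with diet at 24 weeks and by 0.67 with time on the high-fat diet. Mature adipocyte markers summed to 34.3 and 35.7 in HF24, 32.6 and 32.8 in C24, 83.0 and 86.4 in HF12, and 543 and 551 in C12. The C12 arrays, lowest for all 9 Fc receptor and kinase genes, were thus the highest for the adipocyte markers. Single adipocyte markers did not all follow that sum: with diet, 5 of the 8 were lower and 0 higher at 24 weeks. At 12 weeks 7 were lower and 0 higher. Adipoq, Cfd, Retn and Lipe were not well above background in HF24. There Cfd was at least 14.1-fold and Adipoq at least 5.35-fold lower than in C24. The part of these markers in the results was not tested.

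The adaptors carry the ITAMs. Fcer1g encodes the common gamma chain of Fc receptors, and Tyrobp encodes DAP12, the partner of TREM and other receptors. Fcer1g lay at 4.70 and 4.67 in HF24, 3.73 and 3.83 in C24, 5.29 and 5.30 in HF12, and 1.65 and 1.92 in C12. Tyrobp lay at 4.86 and 4.82 in HF24, 3.96 and 3.95 in C24, 5.79 and 5.66 in HF12, and 2.64 and 2.71 in C12. For both adaptors no groups overlapped, HF12 was highest and C12 lowest.

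With diet, Fcer1g was 0.91 ± 0.10 higher at 24 weeks (SE; adjusted p = 0.001289) and 3.51 ± 0.10 higher at 12 weeks (4.966e-06). Tyrobp was 0.89 ± 0.07 higher at 24 weeks (adjusted p = 0.0004125) and 3.05 ± 0.07 higher at 12 weeks (2.414e-06). These are 1.88-fold and 1.85-fold differences at 24 weeks and 11.4-fold and 8.29-fold differences at 12 weeks. On chow, Fcer1g was 1.99 ± 0.10 and Tyrobp 1.28 ± 0.07 higher at 24 than at 12 weeks. On the high-fat diet, Fcer1g fell by 0.61 (adjusted p = 0.004319) and Tyrobp fell by 0.89 (0.0002846).

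Among the kinases, Syk lay at 1.27 and 1.24 in HF24, 0.89 and 0.86 in C24, 2.15 and 2.09 in HF12, and −0.66 and −0.72 in C12. The groups did not overlap, and the HF24 and C24 arrays lay closer together than for any other member. The diet change of Syk was 0.37 ± 0.06 at 24 weeks (SE; adjusted p = 0.004096) and 2.81 ± 0.06 at 12 weeks (1.946e-06). A second, dimmer probe of Syk gave 0.17 ± 0.18 at 24 weeks (adjusted p = 0.5132) and 2.02 ± 0.18 at 12 weeks (0.0005302). With the mean of both probes the 24-week change was 0.27 (adjusted p = 0.07154), so the 24-week call of Syk rests on 1 probe. On chow, Syk was 1.57 ± 0.06 higher at 24 than at 12 weeks by the brighter probe and 0.98 by the dimmer one, and on the high-fat diet it fell by 0.87 and 0.88.

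Fgr, a Src family kinase of myeloid cells, was the one gene of the 9 not well above background on every array. It lay at −2.84 and −3.01 in HF24, −3.62 and −3.91 in C24, −2.28 and −2.08 in HF12, and −7.11 and −7.55 in C12, where neither array was well above background. C12 therefore gives only a bound: each dim array was set at the lowest signal among its probes well above background. Fgr was at least 16.1-fold higher in HF12 than in C12 and at least 5.36-fold higher in C24 than in C12. These bounds were not tested. The fitted changes, which use the dim values as measured, were 5.15 ± 0.18 (SE, limma adjusted p = 1.078e-05) and 3.57 ± 0.18 (4.561e-05). After another background correction (normexp with quantile normalization) they were 2.16 and 1.06. At 24 weeks Fgr was 0.84 ± 0.18 higher with diet (adjusted p = 0.01552), and on the high-fat diet it fell by 0.75 between 12 and 24 weeks (0.01748).

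Both of these smaller Fgr changes depended on single arrays. Without C24 replicate 2 or HF24 replicate 1 the 24-week diet change was 0.69 (adjusted p = 0.06865) or 0.76 (0.07107). Without HF12 replicate 2 or HF24 replicate 2 the time change on the high-fat diet was −0.65 (0.08962) or −0.66 (0.07251). A second Fgr probe lay at −4.67 and −4.60 in HF24 and −3.98 and −3.84 in HF12, and was not well above background on any chow array. Its measured change was 0.92 ± 0.16 with diet at 24 weeks, against the dim C24 values, and −0.73 ± 0.16 with time on the high-fat diet (adjusted p = 0.007244 and 0.01216).

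Lyn, the Src family kinase that can act on both ITAMs and ITIMs, lay at 3.06 and 3.10 in HF24, 2.29 and 2.39 in C24, 3.05 and 3.22 in HF12, and 1.56 and 1.52 in C12. The HF24 and HF12 arrays overlapped, and all other pairs of groups were apart. With diet, Lyn was 0.74 ± 0.08 higher at 24 weeks (SE; adjusted p = 0.0011) and 1.60 ± 0.08 higher at 12 weeks (4.029e-05). On chow it was 0.80 ± 0.08 higher at 24 than at 12 weeks (adjusted p = 0.0005307). On the high-fat diet the change was −0.06 ± 0.08 (adjusted p = 0.5849), with a 95% interval from −0.24 to 0.13, and leaving out HF12 replicate 2 turned its sign (0.030).

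**Figure D3:**
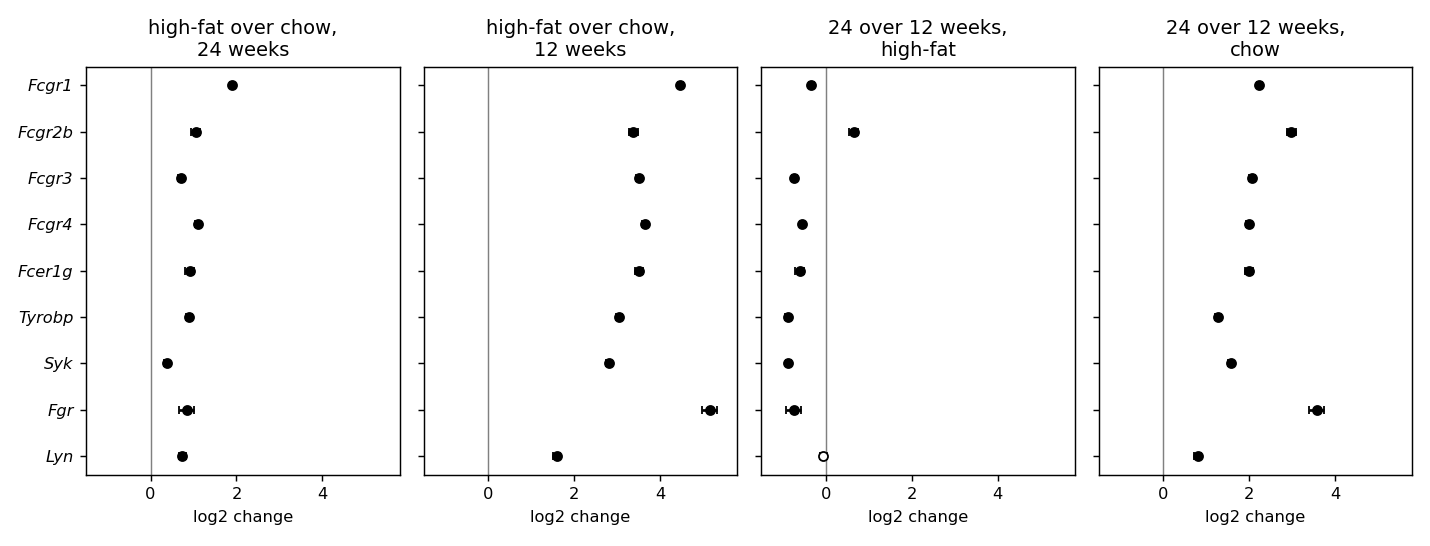
Log2 change of each gene in 4 comparisons (horizontal axis), with bars for 1 SE from limma on 8 arrays; filled points were called at an adjusted p under 0.05. Diet changes at 12 weeks run from 1.60 (Lyn) to 5.15 (Fgr, fitted on dim C12 arrays) and at 24 weeks from 0.37 (Syk) to 1.89 (Fcgr1), and Fcgr2b is the one gene right of 0 for 24 over 12 weeks on the high-fat diet.

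The groups of arrays did not overlap for 9 of the 9 genes with diet at 24 and at 12 weeks and with time on chow, and for 8 of 9 with time on the high-fat diet. Of all genes tested, 69.7% did not overlap with diet at 24 weeks, 68.7% with diet at 12 weeks, 72.6% with time on chow and 76.9% with time on the high-fat diet. Among 29585 genes ranked from the highest diet change at 24 weeks, Fcgr1 stood at 97, Fcgr4 at 426 and Syk at 3169. In the same ranking at 12 weeks, Fcgr1 stood at 22, Fcgr4 at 119, Syk at 342 and Lyn at 769.

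The diet effect itself differed between the feeding times. The interaction, the diet change at 24 weeks minus that at 12 weeks, was below 0 for all 9 genes, where 16.9% of all genes were lower and 12.7% higher (29.7% in either direction). Its median was −2.54, against −0.04 over all genes. It was −2.58 ± 0.08 for Fcgr1 (SE; adjusted p = 4.392e-05), −2.80 ± 0.08 for Fcgr3 (4.392e-05) and −2.54 ± 0.08 for Fcgr4 (4.392e-05). For the inhibitory Fcgr2b it was −2.33 ± 0.15 (0.0002329). The adaptors gave −2.60 ± 0.14 for Fcer1g (0.0001345) and −2.16 ± 0.10 for Tyrobp (7.788e-05). The kinases spread more widely, with −2.44 ± 0.08 for Syk (4.392e-05), −4.31 ± 0.25 for Fgr (0.0001827) and −0.86 ± 0.11 for Lyn (0.002712). With Fgr at its bound in C12, its interaction was −3.17; it was −1.53 after normexp with quantile normalization and −2.43 by the other Fgr probe. Of the 15 macrophage markers, 14 had a lower interaction and 0 a higher one, and their part in the result was not tested.

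Genes of the family are neighbours on mouse chromosome 1, in the order Fcgr2b, Fcgr4, Fcgr3 and, farther on, Fcer1g. Fcgr1 lies on chromosome 3, Lyn and Fgr on chromosome 4, Tyrobp on chromosome 7 and Syk on chromosome 13. A RefSeq gene table lists 42 genes from Fcgr2b to Fcer1g, of which 11 were tested, the 4 members and 7 others; this stretch was chosen after values were seen. With diet at 12 weeks, the 4 members changed by 3.38 to 3.64 and the 7 others by −0.54 to 1.74 (median −0.01). Of the 7, 2 were called, among them Pcp4l1 (1.74), where 31.3% of all genes were called. With diet at 24 weeks, 1 of the 7 was higher and 2 were lower, over a range of −1.35 to 0.30, where 33.1% of all genes were called. With time on the high-fat diet, 4 of the 7 were lower and 0 higher, where 25.5% of all genes were lower and 21.1% higher.

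Promoters are shown for the IgG receptor genes, because 3 of them kept 1 order of groups and Fcgr2b did not. That choice was made from the levels given above, and whether the letters go with the order was not tested. Each is 250 bases before to 50 after a transcription start in RefSeq, assembly GRCm38.p6, 5′ to 3′ along the gene, with capitals where a script found the letters GAGGAA or their reverse complement TTCCTC. The first of these is the core of the sequence bound by PU.1, a transcription factor of macrophages and other myeloid cells. Positions count from the start, with 1 at the first base after the 250, no 0, and negative numbers before it. They cover chr3:96293920-96294219 (minus strand) for Fcgr1, chr1:171059354-171059653 (minus) for Fcgr3, chr1:171018676-171018975 (plus) for Fcgr4 and chr1:170976022-170976321 (minus) for Fcgr2b.
Fcgr1: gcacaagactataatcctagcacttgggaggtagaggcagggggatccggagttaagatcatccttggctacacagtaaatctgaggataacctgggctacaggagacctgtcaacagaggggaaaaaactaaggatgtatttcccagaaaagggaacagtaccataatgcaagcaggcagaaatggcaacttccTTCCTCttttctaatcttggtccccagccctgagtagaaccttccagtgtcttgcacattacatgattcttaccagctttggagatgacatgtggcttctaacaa
Fcgr3: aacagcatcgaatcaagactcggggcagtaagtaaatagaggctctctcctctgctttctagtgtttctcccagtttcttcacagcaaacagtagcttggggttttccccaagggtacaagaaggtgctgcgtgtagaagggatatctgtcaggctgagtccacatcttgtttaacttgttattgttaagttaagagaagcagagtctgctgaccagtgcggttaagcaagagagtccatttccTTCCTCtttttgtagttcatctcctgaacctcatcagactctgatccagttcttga
Fcgr4: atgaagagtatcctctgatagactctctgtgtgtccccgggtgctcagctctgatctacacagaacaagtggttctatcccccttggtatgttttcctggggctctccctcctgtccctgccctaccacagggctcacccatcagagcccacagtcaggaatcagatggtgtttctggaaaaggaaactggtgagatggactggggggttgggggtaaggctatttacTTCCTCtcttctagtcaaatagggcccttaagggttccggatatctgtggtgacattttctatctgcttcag
Fcgr2b: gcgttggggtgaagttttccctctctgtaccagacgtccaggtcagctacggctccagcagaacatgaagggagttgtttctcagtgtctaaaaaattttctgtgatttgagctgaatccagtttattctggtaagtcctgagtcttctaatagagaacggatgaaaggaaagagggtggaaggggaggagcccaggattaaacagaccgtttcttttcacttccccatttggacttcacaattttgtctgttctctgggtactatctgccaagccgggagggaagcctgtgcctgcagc

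The letters stand at −55 in Fcgr1, −6 in Fcgr3 and −22 in Fcgr4, each time as the reverse complement. From the other Fcgr3 start in RefSeq, whose promoter is not printed, the same reverse complement stands at −15. Fcgr1 and Fcgr3, on different chromosomes, share a run of 14 bases around it, ttccTTCCTCtttt. In Fcgr2b the letters are not in this window, and only these exact letters were searched. RefSeq's table held 9 promoters for 7 of the 9 genes and none for Tyrobp and Lyn. The letters were in 6 of the 9 promoters and 5 of the 7 genes, the others being Syk (in 1 of its 2 promoters) and Fgr. They were not in that of Fcer1g, although Fcer1g kept the order of groups of Fcgr1, Fcgr3 and Fcgr4. They were also in 28.3% of all 32851 promoters and in a promoter of 30.6% of the 13207 tested genes with one, so these matches describe the windows only.

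The rest of the pathway was followed with 94 other genes in 5 lists, chosen with earlier results of these data known, of which 87 were tested. With diet, 45 were higher and 7 lower at 24 weeks (median 0.31), and 59 were higher and 3 lower at 12 weeks (median 1.62). With time, 61 were higher and 3 lower on chow (median 0.96), whereas 16 rose and 46 fell on the high-fat diet (median −0.40). The medians of all genes in these comparisons were between −0.03 and 0.02. In the interaction, 3 were higher and 53 lower (median −1.23, against −0.04 over all genes). With diet, 12.9% of all genes were higher and 20.2% lower at 24 weeks, and 13.7% and 17.6% at 12 weeks. With time, the shares were 24.5% and 22.0% on chow and 21.1% and 25.5% on the high-fat diet. In the interaction, 12.7% of all genes were higher and 16.9% lower. The counts of each list below stand beside the same shares.

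**Figure D4:**
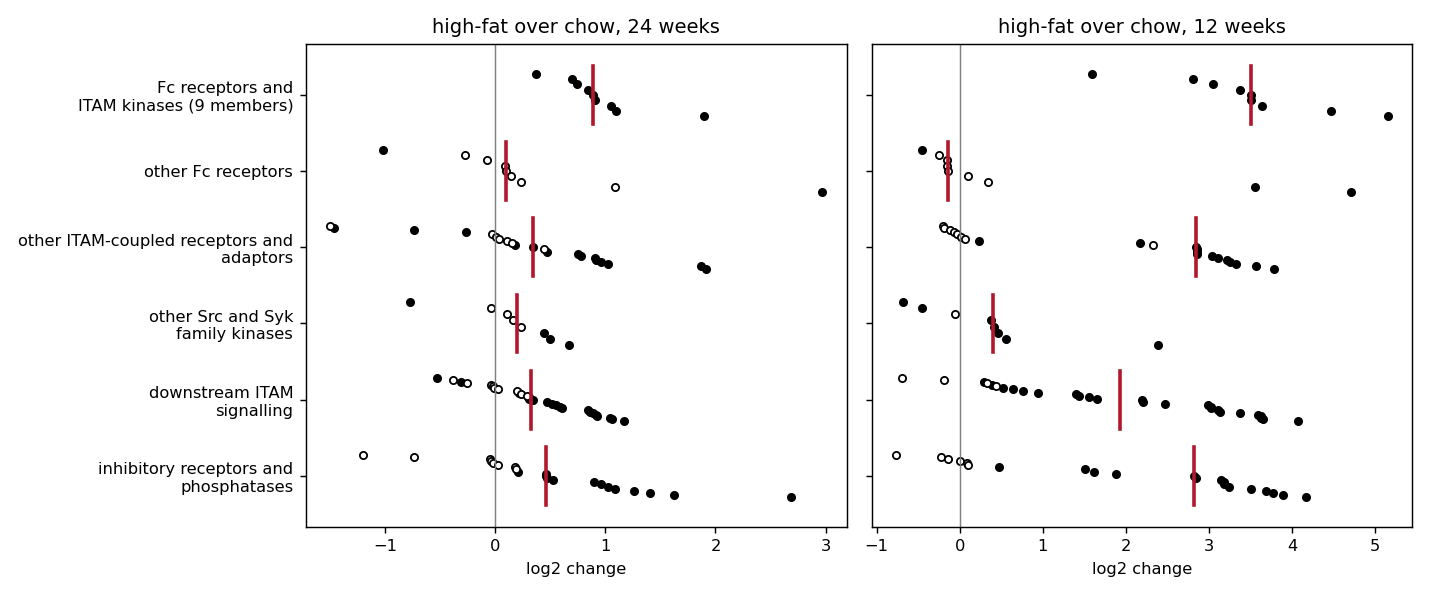
Log2 change with diet at 24 weeks (left) and 12 weeks (right) of the 9 genes and of 5 lists of other pathway genes; each point is a gene, filled where called at an adjusted p under 0.05, and red lines are medians. The median over the 9 genes is 0.89 at 24 weeks and 3.50 at 12 weeks, and that of the downstream signalling genes is 0.33 and 1.93.

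Downstream ITAM signalling genes moved largely one way with diet. At 24 weeks 17 of 28 were higher and 2 lower (median 0.33), where 12.9% of all genes were higher and 20.2% lower. At 12 weeks 24 were higher and 0 lower (median 1.93), where 13.7% of all genes were higher and 17.6% lower. Pik3cg, a catalytic subunit of phosphoinositide 3-kinase, was 1.06 ± 0.15 higher at 24 weeks (SE; adjusted p = 0.003248) and 4.07 ± 0.15 higher at 12 weeks (1.322e-05). At 12 weeks it was followed by Vav1 (3.65), an exchange factor for Rac, and by Btk (3.63), a kinase that acts on phospholipase C gamma. At 24 weeks the highest were Was (1.17), which drives actin assembly, Pik3cg and Plcg2 (1.05), while Nfatc1 fell by 0.53 and Lat fell by 0.31. With time on the high-fat diet, 2 of 28 were higher and 18 lower, led by Pik3ap1 (−1.15), Rac2 (−1.10) and Dock2 (−1.06). On chow, 23 were higher and 0 lower with time, led by Lcp2 (2.30), the adaptor SLP-76.

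Inhibitory receptors and phosphatases also shifted with diet, 13 of 21 higher and 0 lower at 24 weeks (median 0.46) and 15 higher and 0 lower at 12 weeks (median 2.82). Cd72, an ITIM receptor best known from B cells, was 2.68 ± 0.08 higher at 24 weeks (SE; adjusted p = 4.849e-05) and 4.17 ± 0.08 higher at 12 weeks (1.946e-06). Ptpn6, which encodes the phosphatase SHP-1, was 1.41 higher at 24 weeks and 3.90 at 12 weeks, and at 12 weeks Ptprc, the phosphatase CD45, was 3.78 higher. At 24 weeks Lair1, an inhibitory receptor for collagen, was 1.62 higher. With time, 16 were higher and 1 lower on chow, and 4 rose and 14 fell on the high-fat diet. Those higher on the high-fat diet included Pecam1 (1.14), Dok1 (1.07) and Pilra (0.84), and those lower included Cd300lf (−1.53) and Cd300a (−1.51).

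Among other ITAM-coupled receptors and adaptors, 11 of 21 were higher and 3 lower with diet at 24 weeks (median 0.35), and 13 were higher and 0 lower at 12 weeks (median 2.84, or 1.62 with 3 genes at their bounds). At 12 weeks Cd300c2 (3.78), Clec4e (3.57), a receptor for fungal and bacterial glycolipids, and Cd300lb (3.33) led. At 24 weeks Sirpb1a, a partner of DAP12, was 1.91 higher, while Clec4n, the receptor Dectin-2, fell by 0.73. The count at 24 weeks includes Trem3, which was not well above background in HF24 or in C24 and is given no fold. Trem2, a lipid-sensing DAP12 partner of macrophages, was 1.03 higher. With time on chow, 14 were higher and 0 lower, led among those above background by Clec4e (3.99) and Clec4n (3.27). On the high-fat diet, 4 were higher with time, among them Cd3d (1.66), and 9 were lower, among them Cd300ld (−1.70) and Cd300lb (−1.59). Cd3d is a T cell gene, and the summed T and NK cell markers were 3.88 and 4.0 in HF24 and 3.0 and 3.31 in HF12. Their part in the Cd3d result was not tested.

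Of the other Fc receptors, 1 of 9 was higher and 1 lower with diet at 24 weeks (median 0.10), and 2 were higher and 1 lower at 12 weeks (median −0.15), where 33.1% and 31.3% of all genes were called in either direction. Fcrls, a receptor-like gene known from microglia and other macrophages in mice, was 2.97 ± 0.14 higher at 24 weeks (SE; adjusted p = 0.0001114) and 4.72 ± 0.14 higher at 12 weeks (5.517e-06). Fcrl1, better known from B cells, was at least 4.34-fold higher in HF12 than in C12. Its fitted change, on dim C12 values as measured, was 3.55 ± 0.54 (SE, limma adjusted p = 0.004999). Fcgrt, the neonatal receptor that recycles IgG, fell by 0.45 with diet at 12 weeks. With time, the IgE receptor genes Fcer1a and Ms4a2 were 2.51 and 2.81 higher on the high-fat diet and 2.44 and 2.42 higher on chow, and both are also on the mast cell list. The IgE receptor uses the same gamma chain as the activating IgG receptors, and Fcer1g was lower in HF24 than in HF12 but 1.99 higher in C24 than in C12.

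Of the other Src and Syk family kinases, 3 of 8 were higher and 1 lower with diet at 24 weeks. At 12 weeks 5 were higher and 2 lower. Of all genes, 33.1% and 31.3% were called in either direction at 24 and 12 weeks. At 12 weeks Lck was 0.56 and Src 0.46 higher, and Zap70, the T cell relative of Syk, fell by 0.69. At 24 weeks Zap70 was 0.44 and Lck 0.50 higher, and Frk fell by 0.77. With time on the high-fat diet, Lck was 1.11 and Zap70 0.87 higher.

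The genes most like the mean of the 9 members were found by the root mean square difference of levels, each centred on its own mean, over the 8 arrays. The 6 closest of 16723 genes with a symbol were Fyb (0.05), Mpeg1 (0.07), Msr1 (0.08), Lrrc25 (0.10), Adgre1 (0.10) and Vav1 (0.11), on the log2 scale, against a median of 1.34 over all of them. Adgre1, a classical surface antigen of mouse macrophages, is on the macrophage list, and Vav1 is on the downstream list. Among the members, the difference from their own mean ran from 0.09 for Fcgr4 and 0.10 for Fcer1g to 0.69 for Fgr and 0.70 for Lyn, with Fcgr2b at 0.51. The 8 arrays of 4 groups are what all of these points share, and the distances are a description.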

How the data were processed

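Each array measured Cy3-labelled total RNA on an Agilent 8x60K mouse design. The deposited processed intensity was background-subtracted and detrended in space, array by array, per the file headers, using Agilent Feature Extraction 11.0.1.1, per the submitters' processing notes. The deposited median and local background intensity are unprocessed, per the file headers. The value table of the authors holds log2 values: the processed intensity on that scale, shifted by a constant for each array (−9.99 to −9.79), as found by setting it against the array files; how the constant was set is not given in the sources used here.

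Of 62976 spots, 59305 were not controls and covered 56605 probes. Spots with an outlier flag were left out, which removed 192 probes. Spots of a probe were averaged on the log2 scale after the 75th percentile of each array was subtracted. A probe was kept when the deposited flag put it well above background on both arrays of at least 1 group (37650 probes). Where a gene had several kept probes, the one with the highest mean stood for it. Accessions were matched to RefSeq names, which gave a symbol for 32907 probes (58.3%); the headers name build mm9, so coordinates are given only with RefSeq sequences.

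A model with 1 mean per group was fitted to the 8 arrays with limma 3.58.1 (R 4.3.3; 4 residual and 1.87 prior degrees of freedom), two-sided, with Benjamini-Hochberg adjustment over 29585 genes and a threshold of 0.05. Tested on simulated data for HF12 over C12 with 29585 genes, it called 22% of genes shifted by 0.5 (log2), 78% of those shifted by 1, 100% by 2 and 98% by 3, and 7 unshifted genes. The number of arrays limits the precision. Equal replicate numbers do not pair samples: deviations from group means correlated between −0.08 and 0.17.

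All 9 members were named. From each pathway list and comparison, up to 3 called genes in each direction with the largest change could be named, and the 6 genes most like the members; single marker genes and the chromosome 1 neighbours were named after values were seen. The members, lists and alternatives were chosen with earlier results of these data known. Normexp was planned on the mean signal; the files used here hold no such column, so the median was used. Alternatives also covered quantile normalization, the value table, filters, probes per gene, the variance trend, the groups in the fit, a replicate block and leaving out each array. Python 3.11.15 with pandas 2.3.3 and matplotlib 3.10.9 read the files and drew the figures. There were 0 columns of other samples.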

Additional observations from a re-analysis of the deposited data

Results flagged for a closer look

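The diet change at 24 weeks minus that at 12 weeks was tested as an interaction, and it was called for all 9 genes, so each is listed for a closer look. On the log2 scale it was −2.58 for Fcgr1, −2.80 for Fcgr3 and −2.54 for Fcgr4, and −2.33 for the inhibitory receptor Fcgr2b. It was −2.60 for Fcer1g, −2.16 for Tyrobp, −2.44 for Syk, −4.31 for Fgr and −0.86 for Lyn. The Fgr value rests on C12 arrays that were not well above background. After normexp and quantile normalization it was −1.53.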

How the results depend on the processing

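Of the log2 changes of the 9 genes in the 5 comparisons, 449 kept direction and side of the threshold under settings other than leaving out an array, 2 lost their call and 0 changed sign; on leaving out each array, 355 kept both, 4 lost their call and 1 changed sign. The lost calls were Syk for HF24 over C24 (0.27 with the mean of its probes, and 0.17 with its other probe, a setting chosen after seeing the data) and Fgr on single arrays, as given with their values above. Lyn for HF24 over HF12 was 0.030 without HF12 replicate 2, and ranged from −0.14 to 0.030 on leaving out 1 array. Fgr changes shrank after normexp and quantile normalization, to 2.16 for HF12 over C12, 1.06 for C24 over C12, −0.47 for HF24 over HF12 and −1.53 for the interaction, and its other probe gave 3.35, 1.70 and −2.43 for the first, second and last of these. The other Syk probe gave 0.98 for C24 over C12. The cause was not tested. Fgr was not tested when every array had to be well above background, which left 8 members tested. The count of all genes called for HF12 over C12 ranged from 5440 to 8810 on leaving out 1 array, against 9263 (6077 without C12 replicate 1, 5440 without HF12 replicate 1, 5825 without HF12 replicate 2). Other counts of calls stayed within 1.5 times. With replicate number as a block (replicate block), the members called were 9 for HF24 over C24, 9 for HF12 over C12, 9 for C24 over C12, 8 for HF24 over HF12 and 9 for the interaction, and all genes called for HF12 over C12 were 8041; the numbers do not pair the samples. The interaction needs all groups, so it has no fit on only the groups compared. Another scaling moved the median of all genes by under 0.1. Dim signals limit Fgr most.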
